A study of Mus musculus with 9 samples.

Results

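The 10 genes Fos, Fosl1, Jun, Junb, Egr1, Ier2, Ier3, Dusp1, Dusp6 and Myc were taken by name, as protein-coding genes, from a table of 56748 genes measured by RNA-Seq in Hepa1-6 cells, a mouse hepatoma line. Each name matched 1 gene, and all 10 passed the filter on low counts that left 14510 genes for testing. Immediate early genes are transcribed within minutes of a growth factor or stress signal, without new protein synthesis, because the MAP kinases ERK, JNK and p38 activate factors already bound at their promoters. Several of their products act back on the pathway. Fos and Jun proteins pair to form the AP-1 transcription factor, Egr1 is a zinc-finger transcription factor, and the dual-specificity phosphatases Dusp1 and Dusp6 remove the activating phosphates from MAPKs. In liver these genes are known for their early induction after injury or partial hepatectomy, and in hepatoma cells for their response to growth factors.

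Cells were grown in DMEM with serum and either 37 µg/mL lefamulin or 37 µg/mL tiamulin for 2 days, or were left as a control, with 3 libraries in each of the 3 groups. The sample labels call the control untreated and the methods of the study call it a vehicle control. Lefamulin and tiamulin are antibiotics with a shared pleuromutilin core and different side chains, given here at equal mass, and the molar concentrations were not stated. A single time was sampled, so these are levels after days of exposure and not the first response to the drugs. All libraries came from 1 cell line, and the labels do not say whether the 3 libraries of a group were separate cultures, so p-values measure the spread between these libraries, which may be technical. In bulk RNA, fewer cells that express a gene and less RNA per cell cannot be told apart.

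Total counts lay between 15568887 and 18008105 per library. Abca1, the cholesterol transporter on which the study centred, fell under lefamulin (-2.95 on the log2 scale, SE 0.12) and under tiamulin (-3.74, SE 0.13), so both drug groups stood apart from the control as labelled. Of 11 hepatoma lineage markers, 8 had an FPKM (reads scaled by gene length and library size) over 1 in every library. The levels of some differed, with Alb at -0.24 under lefamulin and -0.50 under tiamulin on the log2 scale, Trf at 0.27 and Hnf4a at -0.21 under lefamulin, and Afp at -0.81, Apob at -0.39 and Krt18 at 0.37 under tiamulin, each called. Of 12 markers of blood, endothelial and stromal cells, Cd68 and Pdgfra were over 1, 6 were listed at 0 in all controls, and the sum over the list was 9.18 to 9.64 FPKM in controls, 10.3 to 14.5 under lefamulin and 14.7 to 18.7 under tiamulin. Cd68, a macrophage marker, was higher by 0.65 and 1.02 on the log2 scale (edgeR adjusted p = 0.0183 and 0.000586). Pdgfra, a stromal marker, fell by 0.46 under lefamulin (edgeR adjusted p = 0.00559) and had a value of 0.14 under tiamulin (edgeR adjusted p = 0.347). Ptprc, the pan-leukocyte marker, was called higher under both drugs (edgeR adjusted p = 0.0168 and 0.0336) at mean levels below 1 CPM, and the macrophage marker Adgre1 was listed at 0 in every library. The part of these differences in the results was not tested. Tiamulin library 2 stood apart from the other libraries of its group, with a chi-square per degree of freedom of 16.3 and 18.6 against them, compared with 2.79 to 6.91 for the other pairs within a group. The tests of the 10 genes, and the pathway lists as counts, are therefore also given without it.

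Promoter sequence was available for 6 of the 10 genes in RefSeq (GRCm38.p6), as 250 bases before and 50 after the transcript start, and not for Fosl1, Egr1, Ier2 and Myc. The 250 upstream bases are shown for Dusp1 and Jun, which rose under both drugs, and for Junb, which was lower under lefamulin. All 3 lie on the minus strand and read 5′ to 3′ toward the start. Capitals mark a cyclic AMP response element (TGACGTCA) beginning 143 bases before the Dusp1 start and an E box (CACGTG) beginning 126 bases before it.
Dusp1, chr17:26508473-26508722: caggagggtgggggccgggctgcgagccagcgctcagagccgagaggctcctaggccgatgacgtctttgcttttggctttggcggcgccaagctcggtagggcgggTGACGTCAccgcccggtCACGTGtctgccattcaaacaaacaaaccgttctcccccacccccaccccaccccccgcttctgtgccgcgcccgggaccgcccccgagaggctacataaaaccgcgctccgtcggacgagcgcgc
Jun, chr4:95052223-95052472: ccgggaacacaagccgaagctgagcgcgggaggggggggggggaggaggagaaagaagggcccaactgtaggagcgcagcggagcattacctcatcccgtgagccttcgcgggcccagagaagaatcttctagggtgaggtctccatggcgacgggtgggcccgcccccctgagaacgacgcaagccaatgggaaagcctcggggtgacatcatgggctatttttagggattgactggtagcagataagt
Junb, chr8:84978749-84978998: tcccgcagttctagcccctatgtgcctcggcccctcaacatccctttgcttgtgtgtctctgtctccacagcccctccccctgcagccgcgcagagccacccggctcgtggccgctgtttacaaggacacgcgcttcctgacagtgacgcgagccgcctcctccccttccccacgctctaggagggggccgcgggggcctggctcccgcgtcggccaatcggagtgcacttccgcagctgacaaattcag
The letters searched, on both strands, were the CArG box of serum response factor, the cyclic AMP response element TGACGTCA, the AP-1 element TGANTCA, the E box CACGTG and TATAAA. In the 300-base windows of all 32851 promoters they occurred in 1.63%, 1.79%, 7.81%, 7.15% and 13.6%. Among the 6 genes, Dusp1 alone held the response element and the E box, and TATAAA was found at base -33 of Fos and at base 1 of Junb. The CArG box and the AP-1 element had no match in the 6 windows, which says only that these letters are not there.

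Levels of the 10 genes differed widely in control cells. Per length, the order by mean FPKM ± SD (n = 3) began with Dusp6 at 174 ± 9.04, the ERK-specific phosphatase, then Myc at 115 ± 10.3, Ier3 at 104 ± 2.80 and Junb at 100.4 ± 17.6. Ier2 at 32.5 ± 6.11, Fosl1 at 19.7 ± 3.34, Egr1 at 17.3 ± 0.49 and Dusp1 at 13.8 ± 0.31 formed the middle. Jun at 6.85 ± 0.95 and Fos at 1.88 ± 0.22 were lowest. The ranges of Myc and Ier3, of Ier3 and Junb, and of Fosl1 and Egr1 overlapped, whereas every other pair of neighbours in this order was apart in all 3 control libraries. The order of Fos, Jun and Dusp6 at the ends was the same in all 3 groups, while Dusp1 held rank 8 in the control and rank 6 under each drug.

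**Figure D1:**
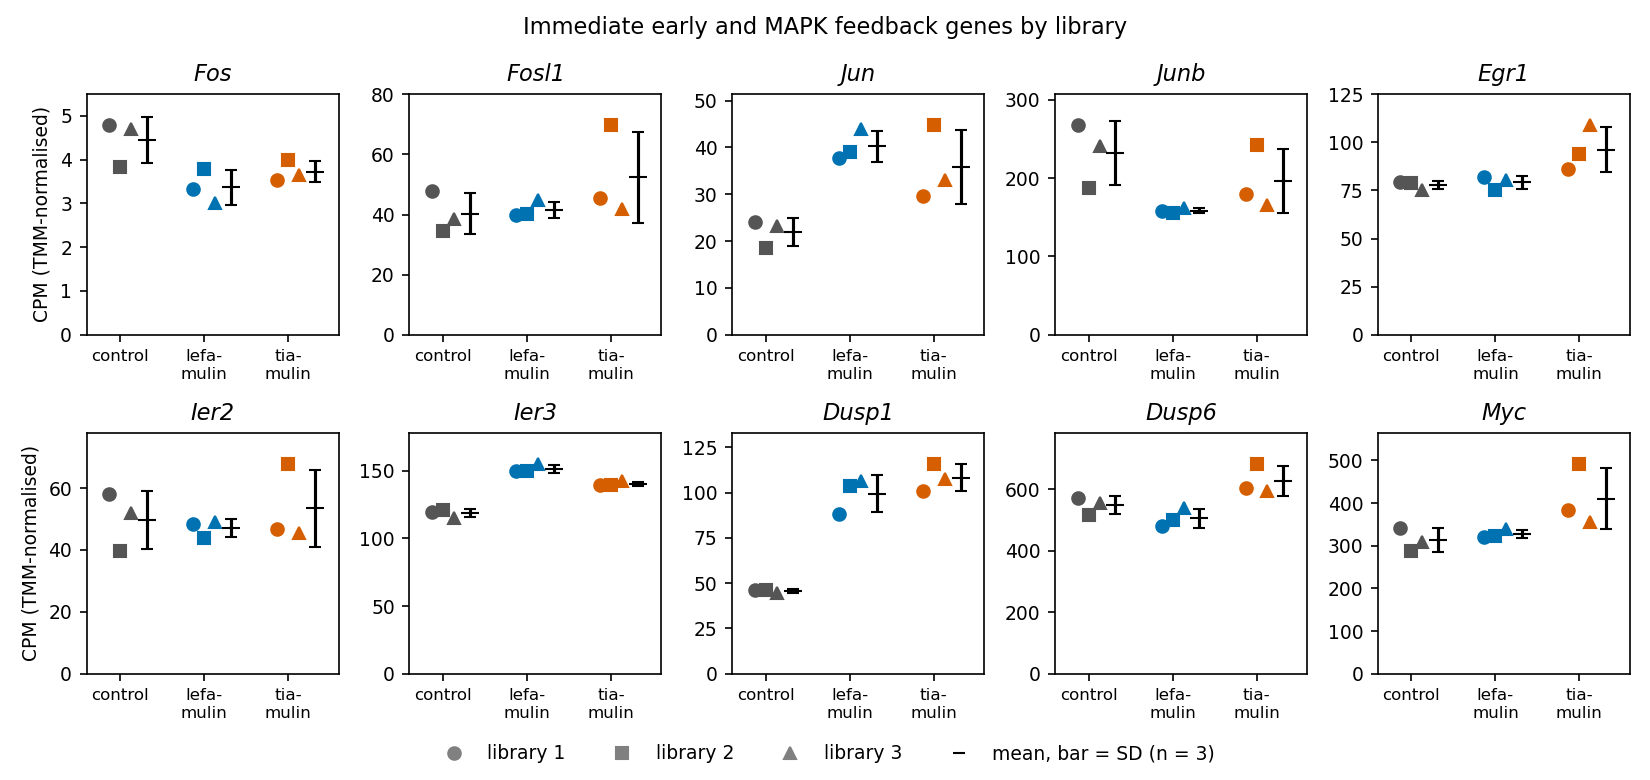
Levels in CPM (read counts scaled by library size with TMM, linear axes from 0) of the 10 genes in each of the 9 libraries, with the symbol giving the library number and the bar the mean and SD of 3 libraries. Dusp1, Jun and Ier3 are separated from the control in every treated library. Tiamulin library 2 is the highest of its group for every gene but Egr1 and Ier3.

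Dusp1 (MKP-1), an inducible phosphatase of p38, JNK and ERK, was the only one of the 10 genes to be a DEG by the limits of the study, an adjusted p under 0.05 with a log2(fold change) beyond 1 in either direction, and it was one under both drugs. Across all genes tested, 1.51% were DEGs under lefamulin and 1.78% under tiamulin. Its level was 46.4, 46.3 and 44.6 CPM in the control libraries, 87.9, 104 and 107 CPM under lefamulin, and 101, 116 and 108 CPM under tiamulin. Every treated library lay above every control library, and the control libraries differed by little. The log2(fold change) was 1.12 ± 0.08 (SE, quasi-likelihood F-test, Benjamini-Hochberg adjusted over 14510 genes, edgeR adjusted p = 7.28e-07) under lefamulin and 1.24 ± 0.08 (edgeR adjusted p = 2.24e-07) under tiamulin, or 2.17-fold and 2.36-fold. Both values kept their call in 20 of 20 alternative settings, including those without tiamulin library 2. The deposited model of Dusp1 spans 56539 bases and overlaps Ergic1 on the opposite strand, and whether counting used the strand was not stated. Ergic1 had a log2(fold change) of -0.02 ± 0.08 and 0.05 ± 0.08, with edgeR adjusted p of 0.919 and 0.704.

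Dusp6 (MKP-3), the cytoplasmic phosphatase specific for ERK, had the highest FPKM of the 10 genes. Its level was 572, 516 and 554 CPM in the control, 478, 499 and 537 CPM under lefamulin, and 605, 681 and 594 CPM under tiamulin. The tiamulin libraries lay above all others, and the lefamulin libraries overlapped the control. Against the control, the log2(fold change) was -0.12 ± 0.07 (edgeR adjusted p = 0.273) under lefamulin and 0.20 ± 0.07 (edgeR adjusted p = 0.0566) under tiamulin, and neither passed the threshold in edgeR on all 9 libraries. Of 20 alternatives, 4 called Dusp6 under tiamulin: DESeq2 (0.20, DESeq2 adjusted p = 0.0444), no filter on low counts (0.20, edgeR adjusted p = 0.0128), and edgeR without tiamulin library 2 (0.13, edgeR adjusted p = 0.0479) or without tiamulin library 3 (0.23, edgeR adjusted p = 0.0412). Under lefamulin 2 did, without tiamulin library 2 (-0.12, edgeR adjusted p = 0.0437) and without it under GC and length offsets (-0.15, edgeR adjusted p = 0.0454).

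Jun, a basic leucine zipper subunit of AP-1, rose under both drugs. It stood at 24.1, 18.5 and 23.2 CPM in the control, at 37.8, 39.0 and 43.9 CPM under lefamulin, and at 29.7, 44.8 and 33.1 CPM under tiamulin, and each treated library exceeded each control. The log2(fold change) was 0.88 ± 0.14 (edgeR adjusted p = 0.00101) for lefamulin and 0.71 ± 0.14 (edgeR adjusted p = 0.00346) for tiamulin, or 1.83-fold and 1.63-fold, below the fold threshold for a DEG. The calls held in all 20 alternatives. The lncRNA Junos, which overlaps Jun on the opposite strand, had 8 to 18 counts per library.

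Junb, a second Jun-family subunit that is known to act against Jun at some promoters, moved the other way under lefamulin. Control libraries gave 268, 188 and 241 CPM, lefamulin libraries 158, 155 and 161 CPM, and tiamulin libraries 180, 243 and 166 CPM. All lefamulin values were lower than the lowest control, whereas the tiamulin values overlapped the control. Under lefamulin Junb fell by 0.55 ± 0.15 on the log2 scale (edgeR adjusted p = 0.0297), and under tiamulin the value was -0.24 ± 0.14 (edgeR adjusted p = 0.298). The lefamulin call was lost in 9 of 20 alternatives, among them those without control library 1 or 3 or any of the lefamulin libraries, with an edgeR adjusted p of up to 0.165 with no filter on low counts. With GC and length offsets Junb passed under lefamulin, at -0.51 (edgeR adjusted p = 6.96e-05). It then also passed under tiamulin, at -0.30 (edgeR adjusted p = 0.00398). Prdx2 overlaps Junb on the opposite strand and had a log2(fold change) of -0.08 and -0.13, with edgeR adjusted p of 0.359 and 0.112.

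The ratio of these 2 genes was formed after their values were seen and is given without a test. Jun per Junb, in FPKM, was 0.0650 to 0.0709 in the control libraries, 0.173 to 0.197 under lefamulin and 0.119 to 0.144 under tiamulin. The ranges of the 3 groups did not overlap, with or without tiamulin library 2, which at 0.133 lay inside the range of its group.

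Fos, the partner of Jun in the classic AP-1 dimer, was the least abundant of the 10, with 49 to 84 counts per library. It had 83, 66 and 84 counts in the control, 52, 63 and 49 under lefamulin, and 58, 64 and 62 under tiamulin, or means of 4.44 ± 0.52, 3.37 ± 0.40 and 3.73 ± 0.24 CPM (SD, n = 3). The lefamulin range was below the control range, yet the log2(fold change) of -0.40 ± 0.18 (edgeR adjusted p = 0.162) did not pass, nor did the -0.25 ± 0.17 under tiamulin (edgeR adjusted p = 0.362). At this depth, a change in Fos has a 95% interval of -0.77 to -0.02 under lefamulin and of -0.63 to 0.12 under tiamulin. Fosl1 (Fra-1), a Fos-family subunit of later kinetics, gave 34.5 to 47.8 CPM in the control, 39.7 to 44.7 CPM under lefamulin and 41.9 to 69.8 CPM under tiamulin. The groups overlapped, and log2(fold change) was 0.04 ± 0.17 (edgeR adjusted p = 0.907) and 0.38 ± 0.17 (edgeR adjusted p = 0.167).

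Ier3 (IEX-1), a small protein that modulates ERK signalling and cell survival, rose modestly with little spread. The control libraries had 119, 121 and 115 CPM, the lefamulin libraries 150, 149 and 155 CPM, and the tiamulin libraries 139, 139 and 142 CPM. No treated library reached down to the control. Its log2(fold change) was 0.35 ± 0.05 (edgeR adjusted p = 0.000529) under lefamulin and 0.24 ± 0.05 (edgeR adjusted p = 0.00591) under tiamulin, or 1.28-fold and 1.18-fold, and both calls held in all 20 alternatives. The within-group SD of Ier3 was 0.029 on the log2 scale, at the 1.13 percentile of 10360 genes with a mean over 5 CPM.

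Egr1 passed the threshold under tiamulin alone. The control had 79.5, 78.7 and 75.5 CPM, lefamulin 82.0, 75.1 and 80.2 CPM, and tiamulin 86.0, 93.7 and 109 CPM. All tiamulin values were above all control values, and lefamulin overlapped the control. The log2(fold change) was 0.31 ± 0.08 (edgeR adjusted p = 0.0172) with tiamulin and 0.02 ± 0.08 (edgeR adjusted p = 0.891) with lefamulin. The tiamulin call was lost in 6 of 20 alternatives, among them without control library 2 or 3 or tiamulin library 3, and with GC and length offsets (0.26, edgeR adjusted p = 0.169). Ier2, a nuclear protein of the immediate early response, gave 39.6 to 58.0 CPM in the control, 43.7 to 49.0 CPM under lefamulin and 45.6 to 67.8 CPM under tiamulin, and its log2(fold change) of -0.08 ± 0.16 and 0.10 ± 0.15 (edgeR adjusted p = 0.781 and 0.722) did not pass. The tiamulin value of Ier2 turned to -0.11 without tiamulin library 2 and to -0.041 without control library 2.

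Myc, the transcription factor that drives ribosome production and metabolism in growing cells, was likewise called under tiamulin. Its libraries gave 343, 287 and 309 CPM in the control, 320, 323 and 339 CPM under lefamulin, and 383, 492 and 357 CPM under tiamulin. Each tiamulin library was above each control library, and lefamulin overlapped the control. Under tiamulin it rose by 0.39 ± 0.10 on the log2 scale (edgeR adjusted p = 0.0155), or 1.31-fold, and under lefamulin the value was 0.07 ± 0.10 (edgeR adjusted p = 0.725). The call was lost in 6 of 20 alternatives, with an edgeR adjusted p of 0.0739 without control library 2 and 0.0618 without control library 3, and it held, at a smaller value, without tiamulin library 2.

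In all, 4 of the 10 genes passed an adjusted p of 0.05 under lefamulin, 3 higher and 1 lower, where 13.1% of all tested genes passed, 7.09% higher and 6% lower. Under tiamulin 5 passed, all higher, where 16.4% of all tested genes passed, 9.08% higher and 7.34% lower. Jun, Ier3 and Dusp1 were called under both drugs, Junb for lefamulin, and Egr1 and Myc for tiamulin. The libraries of the 2 groups did not overlap for 5 genes under lefamulin, compared with 37.6% of all genes, and for 6 under tiamulin, compared with 32.3%. The median log2(fold change) of the 10 genes was 0.03 under lefamulin and 0.27 under tiamulin, beside medians of all tested genes of 0.00 in both. Both comparisons used the same control libraries and are therefore not independent.

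Without tiamulin library 2, 6 of the 10 genes were called under tiamulin, the 5 above and Dusp6, where 23.1% of all tested genes were called. The groups then did not overlap for 8 of the 10 genes, compared with 48.7% of all genes. The log2(fold change) was then 1.19 for Dusp1, 0.52 for Jun, 0.25 for Ier3, 0.32 for Egr1 and 0.24 for Myc, each with an edgeR adjusted p of 0.00456 or less. Jun and Myc were thus lower than with all 3 libraries, and the Myc value moved by more than 1.5 times. Junb had -0.42 (edgeR adjusted p = 0.115), Fos -0.31 (edgeR adjusted p = 0.336) and Fosl1 0.12 (edgeR adjusted p = 0.478), and these did not pass. Under lefamulin 5 of the 10 genes were called without that library, where 24.9% of all tested genes were called, the 4 above and Dusp6.

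**Figure D2:**
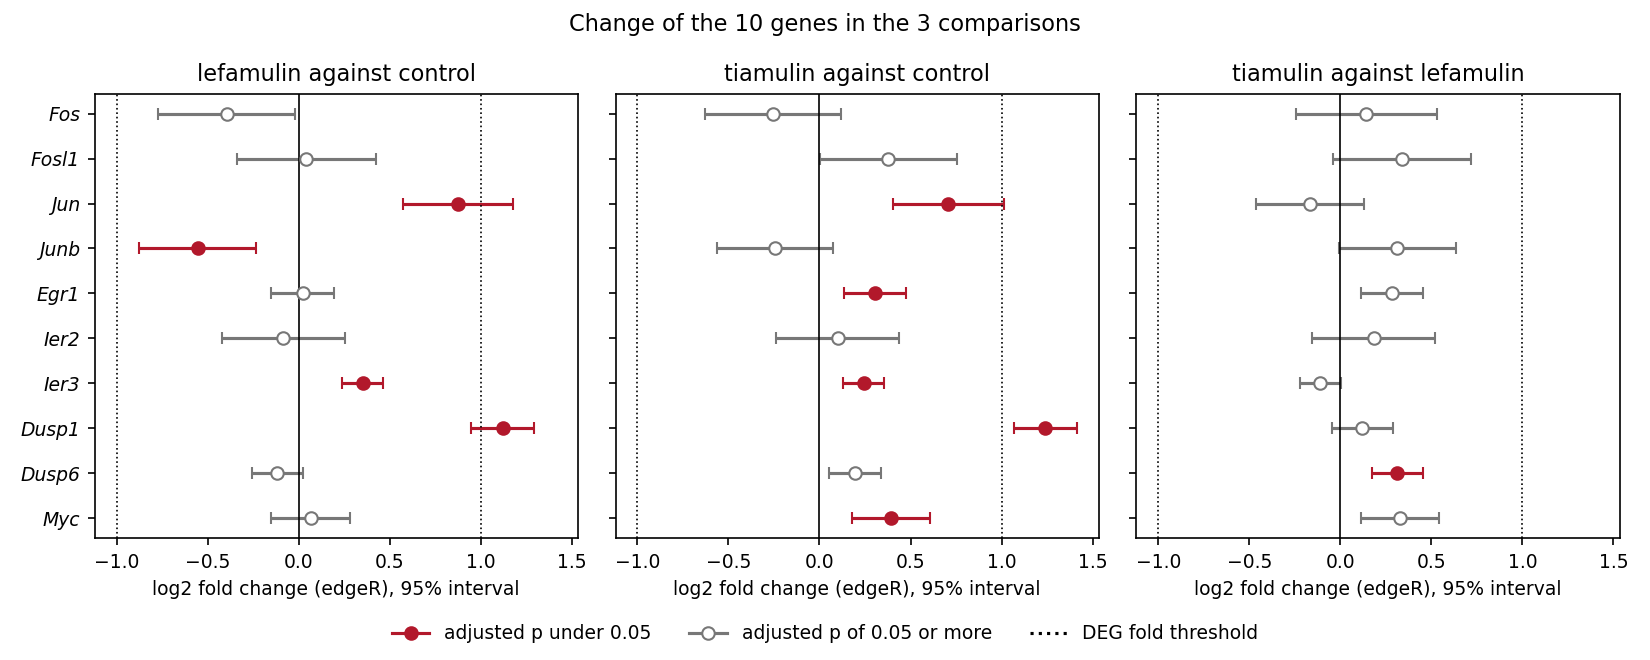
Log2(fold change) of the 10 genes in the 3 comparisons, with bars for the 95% interval and filled symbols for an adjusted p below 0.05. Dusp1 has the highest value under both drugs, 1.12 and 1.24, and in the direct comparison Dusp6 is the only filled symbol.

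Compared directly at the same mass dose and time, tiamulin and lefamulin differed in 1 of the 10 genes, where 4.9% of all tested genes differed, 2.85% higher and 2.05% lower under tiamulin. Dusp6 was higher under tiamulin by 0.31 ± 0.07 on the log2 scale, or 1.24-fold (95% interval 0.17 to 0.45, edgeR adjusted p = 0.0159). That call was lost in 4 of 20 alternatives, among them without lefamulin library 1 or 2 (edgeR adjusted p = 0.0993 and 0.0861) and on the 2 groups alone (edgeR adjusted p = 0.052), and held without tiamulin library 2, at 0.25 (edgeR adjusted p = 0.0011). Egr1 and Myc had differences of nearly the same size, 0.28 (95% interval 0.11 to 0.45, edgeR adjusted p = 0.0582) and 0.33 (0.11 to 0.54, edgeR adjusted p = 0.0773), which did not pass. Without tiamulin library 2 Egr1 did pass, at 0.30 (edgeR adjusted p = 0.0129), and Myc was at 0.18 (edgeR adjusted p = 0.067). Both also passed in DESeq2 (DESeq2 adjusted p = 0.0257 and 0.0274) and with no filter on low counts (edgeR adjusted p = 0.00796 and 3.42e-05). Whether Egr1 and Myc differed between the drugs thus depended on the setting. Junb, called under lefamulin and not under tiamulin, had a difference of 0.31 (95% interval -0.01 to 0.63, edgeR adjusted p = 0.244), which was 0.13 without tiamulin library 2 (edgeR adjusted p = 0.697).

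For the 3 genes that rose under both drugs, the interval of the difference was -0.04 to 0.29 for Dusp1, -0.22 to 0.00 for Ier3 and -0.46 to 0.13 for Jun. The Dusp1 interval thus leaves room for a tiamulin effect up to 0.29 larger on the log2 scale. Without tiamulin library 2, Jun was lower under tiamulin than under lefamulin, at -0.36 (edgeR adjusted p = 0.0238). Fos, Fosl1 and Ier2 had intervals of -0.24 to 0.53, -0.04 to 0.72 and -0.15 to 0.52, and the Fosl1 difference of 0.34 was 0.076 without that library. In all, 3 of the 10 genes differed between the drugs without it, Dusp6 and Egr1 higher and Jun lower under tiamulin, where 8.79% of all tested genes differed. None of the 10 genes was a DEG between the drugs in edgeR or DESeq2, compared with 0.227% of all tested genes in edgeR, and 3 had an unadjusted p below 0.05 in edgeR, compared with 21.6%. The libraries of the 2 drugs did not overlap for 5 of the 10 genes, where this was so for 26.5% of all genes, and for 6 without tiamulin library 2, where it was so for 41% of all genes.

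Several of the 10 genes moved together from library to library within a group. Tiamulin library 2 was above its group mean for 8 of the 10 genes and tiamulin library 1 for 0, control library 1 for 10 and control library 2 for 3. Several libraries carried a trend with GC content over 10315 genes. The Spearman correlation between a gene's GC content and its deviation from the group mean was 0.69 in tiamulin library 2, -0.53 and -0.58 in tiamulin libraries 1 and 3, 0.49 in control library 1 and -0.49 in control library 2, a description across genes of 1 library each. Lefamulin library 3 was above its group mean for 9 of the 10 genes at a correlation of -0.061, and lefamulin library 1 for 2 of them at 0.18. The part of the GC trend in the shared movement of the 10 genes was not tested. Most of the 10 genes are rich in GC, from 49.0% in the longest transcript of Dusp6 to 62.6% in that of Junb, which lies at the 99.0 percentile of tested genes.

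With per-gene offsets fitted to GC content and length, the within-group SD on the log2 scale went from 0.23 to 0.11 for Junb, from 0.25 to 0.17 for Ier2 and from 0.27 to 0.20 for Fosl1. It went from 0.11 to 0.16 for Egr1 and stayed at 0.11 for Dusp1. The median over genes with a mean above 5 CPM was 0.11 without the offsets. The part of the GC trend in the differences between groups was not tested beyond these offsets. With them Dusp1, Jun and Ier3 kept their calls under both drugs, Junb kept its lefamulin call and Egr1 lost its tiamulin call.

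**Figure D3:**
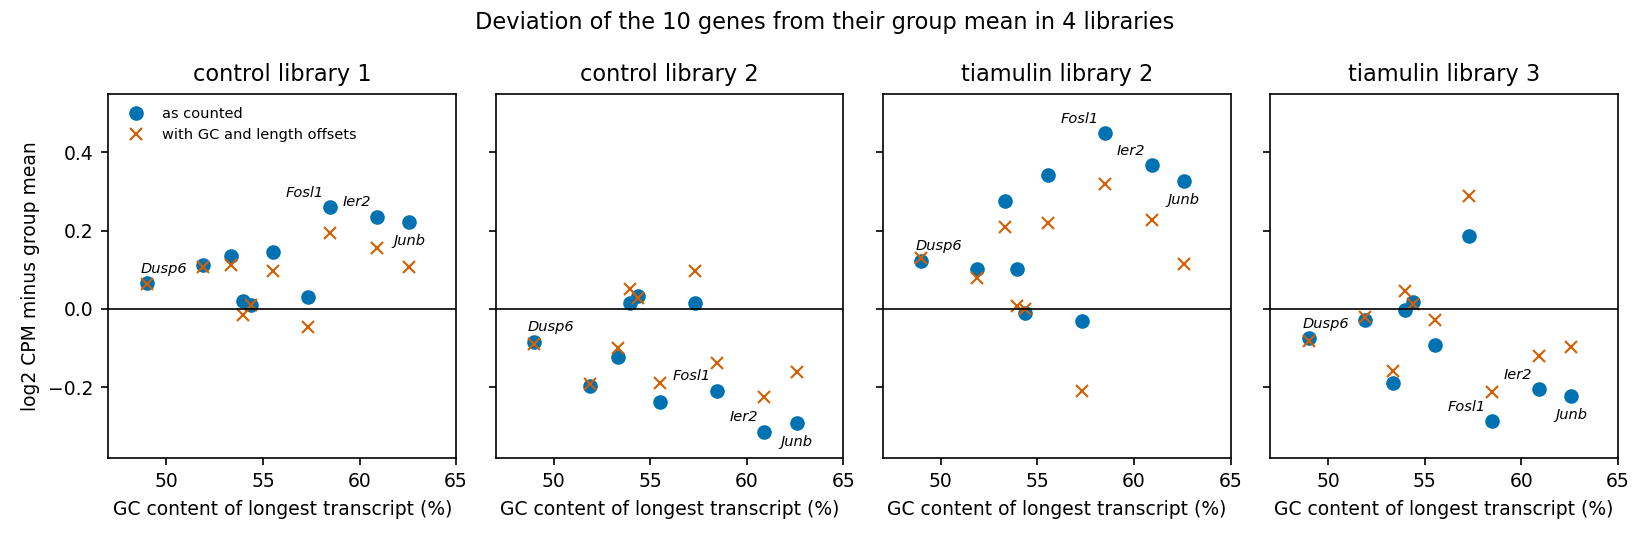
Deviation of each of the 10 genes from its group mean (log2 CPM) against the GC content of its longest transcript in 4 libraries, as counted (circles) and after GC and length offsets (crosses). GC-rich Fosl1, Ier2 and Junb lie above 0 in control library 1 and tiamulin library 2 and below 0 in control library 2 and tiamulin library 3, and the crosses of these genes lie nearer to 0.

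Around the 10 genes, lists of the same pathway gave the setting, against 13.1% of all tested genes called under lefamulin, 16.4% under tiamulin and 4.9% between the drugs. Of 35 other immediate early genes tested, 13 rose and 5 fell under lefamulin, and 18 rose and 5 fell under tiamulin, with medians of 0.07 and 0.23. Rhob, a small GTPase induced by stress, rose by 2.41 ± 0.07 on the log2 scale under lefamulin and 1.30 ± 0.06 under tiamulin. Klf2, a Krüppel-like transcription factor, rose by 3.47 ± 0.18 and 1.39 ± 0.19. The matricellular genes Ccn2 and Ccn1 rose more under tiamulin, by 1.12 ± 0.06 and 1.19 ± 0.07, than under lefamulin, by 0.52 ± 0.06 and 0.27 ± 0.07. All 4 differed between the drugs, with values for tiamulin against lefamulin of -1.11 for Rhob, -2.08 for Klf2, 0.61 for Ccn2 and 0.92 for Ccn1 (edgeR adjusted p of 0.000146 or less).

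The other 9 MAPK phosphatases had called changes in 1 direction. Under lefamulin 4 rose and 5 did not pass, and under tiamulin 6 rose and 3 did not pass, with medians of 0.21 and 0.37. Dusp10, which acts on JNK and p38, rose from 11.4 ± 0.64 CPM (SD, n = 3) to 28.6 ± 3.76 and 29.5 ± 3.05 CPM, a log2(fold change) of 1.33 and 1.37. Dusp4, a nuclear phosphatase, rose by 0.25 and 0.38. Dusp5, a nuclear ERK phosphatase, rose by 0.62 ± 0.10 under tiamulin (edgeR adjusted p = 0.00101), had a value of 0.03 ± 0.11 under lefamulin (edgeR adjusted p = 0.89) and was higher under tiamulin than under lefamulin by 0.59 ± 0.11 (edgeR adjusted p = 0.00638). Dusp16 rose by 0.31 under tiamulin (edgeR adjusted p = 0.00353).

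Of 14 Sprouty, Spred and other ERK output genes tested, 2 rose and 2 fell under lefamulin, and 3 rose and 1 fell under tiamulin. Ccnd1, which encodes cyclin D1, fell by 0.23 under both drugs. Phlda1 fell by 0.30 under lefamulin, the cytokine Lif rose by 0.36 and 0.27, and the ephrin receptor Epha2 rose by 0.37 under tiamulin. Of 9 EGFR ligands and receptors, 3 rose and 1 fell under lefamulin, and 4 rose and 2 fell under tiamulin. Erbb3, a receptor for neuregulins, rose by 1.30 ± 0.13 and 1.62 ± 0.13, and the ligand Areg by 0.75 and 0.68. Nrg1, a neuregulin ligand, fell by 0.39 and 0.55, and Hbegf rose by 0.31 under tiamulin.

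Of 21 genes of the RAS-ERK cascade, 1 rose and 2 fell under lefamulin, near the 13.1% of all tested genes, and 2 rose and 3 fell under tiamulin, beside 16.4% of all. Rasa1, a GTPase-activating protein, fell by 0.26 under lefamulin, and under tiamulin the kinase gene Mknk1 rose by 0.50 and Rps6ka3 fell by 0.39. Of 20 genes of the JNK and p38 cascade, 2 fell under lefamulin, 1 rose and 1 fell under tiamulin, and 18 did not pass in each comparison. Map3k1, an upstream kinase of JNK, fell by 0.84 ± 0.09 and 0.65 ± 0.09, Map3k5 fell by 0.25 under lefamulin, and Mapkapk3 rose by 0.47 under tiamulin. Of 12 SRF, TCF and CREB factors, the SRF cofactor Mrtfb rose by 0.22 under tiamulin, while 11 under tiamulin and 12 under lefamulin did not pass. Elk3 and Atf1, the members of that list with the highest control FPKM, had a log2(fold change) of -0.06 and 0.07 under lefamulin and of -0.0048 and 0.10 under tiamulin.

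Around Myc, 1 of the 12 genes of its dimerisation network passed against the control, under tiamulin, where Mxd4, an antagonist that pairs with Max, rose by 0.32. Between the drugs 2 were higher under tiamulin, Mxd4 by 0.62 (edgeR adjusted p = 0.00382) and Mnt, another Max partner, by 0.47 (edgeR adjusted p = 0.0158). Max itself had values of 0.07 and -0.10 (edgeR adjusted p = 0.561 and 0.37). Mlx, a relative of Max, had values of 0.22 and 0.19 that did not pass (edgeR adjusted p = 0.0568 and 0.0858). Of 20 MYC-linked growth genes, 2 rose and 1 fell under lefamulin, and 6 fell and 14 did not pass under tiamulin. Ldha, which encodes a lactate dehydrogenase subunit, fell by 0.27 under lefamulin and 0.47 under tiamulin, and under tiamulin Nme1 fell by 0.54 ± 0.10 and the nucleolar methyltransferase Fbl by 0.31. Odc1, the first enzyme of polyamine synthesis, rose by 0.26 under lefamulin. Between the drugs 7 of these 20 genes were lower under tiamulin and 13 did not pass, where 2.05% of all tested genes were lower.

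Without tiamulin library 2, where 23.1% of all tested genes were called under tiamulin, 19 of the other immediate early genes rose and 5 fell under tiamulin, 5 of the MAPK phosphatases rose, and 1 of the MYC-linked growth genes rose and 10 fell. The RAS-ERK cascade then had 5 higher and 3 lower, and the JNK and p38 cascade 3 higher and 3 lower of 21 tested. In the ERK output list 4 rose and 1 fell, in the EGFR list 4 rose and 3 fell, in the SRF, TCF and CREB list 1 rose and 1 fell, and in the MYC network 1 rose. Under lefamulin, whose test shares its estimate of the spread with the tiamulin libraries, 24.9% of all tested genes were then called. Of the immediate early genes 14 then rose and 5 fell under lefamulin, of the MAPK phosphatases 5 rose, of the ERK output genes 4 rose and 5 fell, and of the EGFR list 3 rose and 3 fell. The RAS-ERK cascade had 2 higher and 3 lower, the JNK and p38 cascade 2 lower, the SRF, TCF and CREB list 3 lower (Creb1, Elk4 and Crtc2), the MYC network 1 higher (Mlx) and 4 lower (Mnt, Mxi1, Mycl and Mxd4), and the MYC-linked growth genes 4 higher and 2 lower. The genes in these brackets were named after their values were seen.

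Among the named genes called under tiamulin, Mxd4 at 0.29 and Mrtfb at 0.16 no longer passed (edgeR adjusted p = 0.0538 and 0.057), and the value of Epha2 went from 0.37 to 0.23 and that of Rps6ka3 from -0.39 to -0.25. Between the drugs, where 8.79% of all tested genes differed without that library, the immediate early genes had 8 higher and 6 lower, the MAPK phosphatases 1 higher, the ERK output genes 1 higher, the EGFR list 1 higher and 1 lower, the RAS-ERK cascade 1 higher and 2 lower, and the JNK and p38 cascade 2 higher under tiamulin. The SRF, TCF and CREB list had 1 higher, the MYC network 2 higher and the MYC-linked growth genes 1 higher and 9 lower, and Rhob, Klf2, Ccn2, Ccn1, Dusp5, Mxd4 and Mnt kept their calls.

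**Figure D4:**
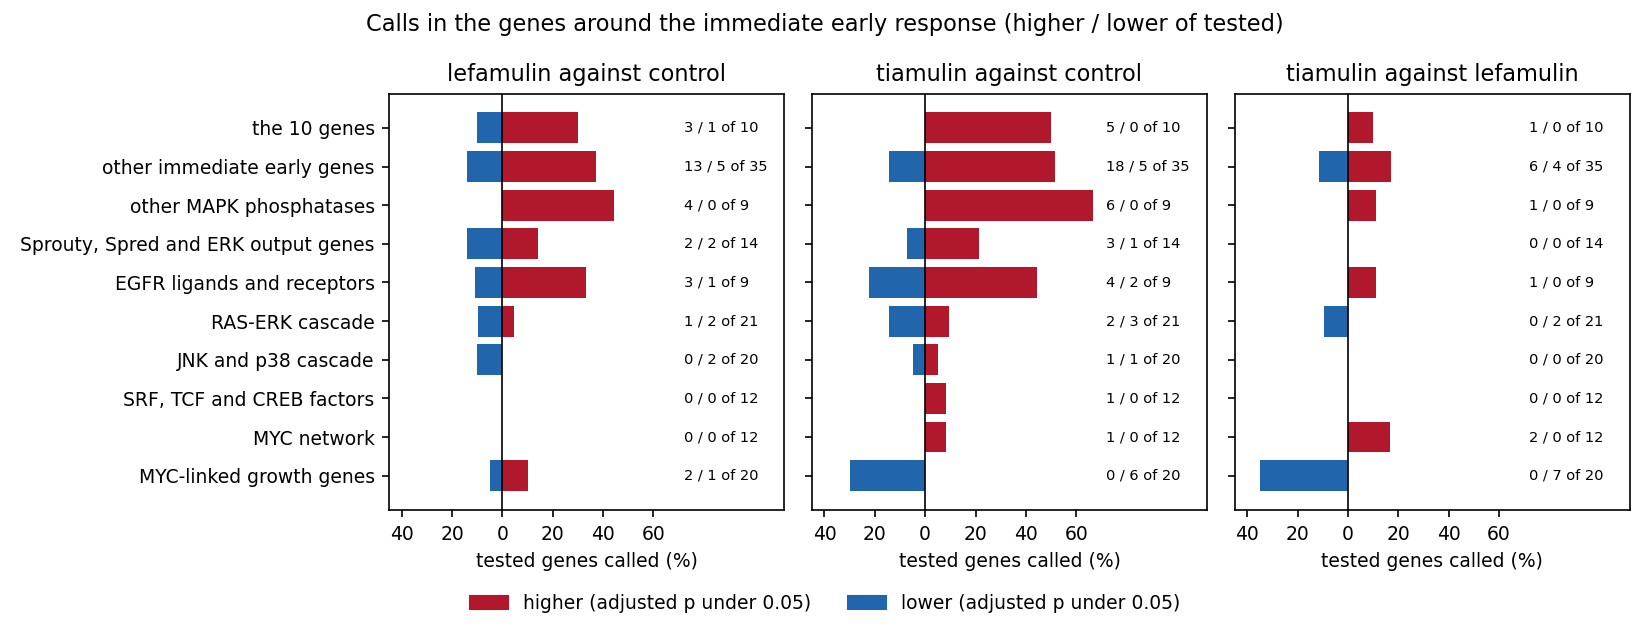
Share of tested genes (%) higher and lower at an adjusted p below 0.05 in each pathway list. The panels are the 2 drugs against the control and against each other, with the numbers of genes beside the bars. The other immediate early genes have 18 higher and 5 lower under tiamulin, and the MYC-linked growth genes 6 lower.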

How the data were processed

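Libraries were grouped by the sample labels. The members and pathway lists were chosen with earlier results of these data known. Per the submitters' processing notes, which name CASAVA 1.8, fastp, HISAT2 2.0.5, featureCounts 1.5.0-p3, DESeq2 1.20.0 and mm10, the authors deposited raw read counts per gene, without normalization, and FPKM values per gene. The strand setting is not given in the sources used here, and the deposited start and end equalled those of GRCm38 for 2.86% of 52088 nuclear genes and 0 of the 10 members, so deposited positions are not printed.

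Counts were tested with edgeR 4.0.16 in R 4.3.3 (TMM, filterByExpr, robust quasi-likelihood, all 9 libraries fitted together, by group only), with Benjamini-Hochberg adjustment over 14510 genes. A DEG, by the study's limits, had an adjusted p under 0.05 with a log2(fold change) beyond 1 in either direction. On simulated counts for lefamulin against control, 74 of 100 genes changed by 0.75 on the log2 scale and 95 of 100 changed by 1.5 were recovered, with 17 unchanged genes called among 14277 tested. The simulated libraries held no GC trend and no outlying library, and changes smaller than 0.75 were not simulated. Total counts of 15568887 to 18008105 limit precision mainly for Fos. Alternatives were DESeq2 1.42.0, its size factors, no filter, a minimum of 10 counts per library, edgeR on 2 groups alone, the replicate number as a block, offsets for GC content (longest GENCODE M21 transcript, known for 14242 genes) and gene length, limma 3.58.1 on log2(FPKM + 1) and log2(FPKM + 0.1) for genes over 1 FPKM in at least 3 libraries, and each library left out. The GC offsets without tiamulin library 2, and the pathway lists and shares of all genes without it, were chosen after seeing the data. All 10 members are named, with up to 4 genes of each list by smallest adjusted p, or the 2 with the highest control level where fewer than 2 passed. Abca1 serves as a check of the drug effect. An item covered by this naming rule is not reported here.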

Additional observations from a re-analysis of the deposited data

Results flagged for a closer look

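The log2(fold change) of Dusp6 between tiamulin and lefamulin was 0.31 (edgeR adjusted p = 0.0159), a difference between the drugs found by testing them directly against each other. Levels were 547 ± 28.7 CPM (SD, n = 3) in the control, 505 ± 29.8 CPM under lefamulin and 627 ± 47.8 CPM under tiamulin. The gene lay on opposite sides of the control mean under the drugs, and neither difference from the control passed the threshold in edgeR on all 9 libraries. The call between the drugs was lost in 4 of 20 alternatives, with an edgeR adjusted p of up to 0.0993, and the call against the control under tiamulin was gained in 4 of 20, DESeq2 among them.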

How the results depend on the processing

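Dusp1, Jun and Ier3 kept their calls under both drugs in all 20 alternatives, with a log2(fold change) of 1.06 to 1.29 for Dusp1, 0.52 to 0.95 for Jun and 0.22 to 0.37 for Ier3. The number of the 10 genes called under tiamulin, 5, was 3 with edgeR on the 2 groups alone and 3 to 6 with a library left out, being 3 without control library 2 or 3. For tiamulin against lefamulin, 1 gene became 3 with DESeq2, 3 with no filter, 3 with GC and length offsets without tiamulin library 2, 0 on the 2 groups alone, and 0 to 3 with a library left out, being 0 without lefamulin library 1 or 2, 2 without tiamulin library 1 or 3 and 3 without tiamulin library 2. For lefamulin the number, 4, ranged from 3 to 5. With the replicate number as a block it was 4, 5 and 0. The labels do not say whether the replicate numbers pair the libraries. Same-numbered libraries correlated by -0.46 to 0.02 in their deviation from the group mean. These correlations also hold the GC trends of single libraries and cannot settle the pairing. The sign turned only in results that were never called. With a library left out, Fosl1 under lefamulin ranged from -0.056 (without control library 2) to 0.18 and was -0.0145 without lefamulin library 3. Egr1 under lefamulin ranged from -0.0021 (without lefamulin library 1) to 0.059 and was -0.0008 without control library 3. Ier2 ranged from -0.22 to 0.038 (without control library 1) under lefamulin, from -0.11 (without tiamulin library 2) to 0.22 under tiamulin, with -0.041 without control library 2, and from -0.0245 (without tiamulin library 2) to 0.29 between the drugs. With GC and length offsets and without tiamulin library 2, Ier2 under tiamulin was -0.054. The cause was not tested. Over all genes, the 1900, 2383 and 711 genes called became 3429, 3869 and 1910 with GC and length offsets, 3105, 3573 and 1606 with these and the block, 4178, 3972 and 1852 with these without tiamulin library 2, 3510, 1685 and 280 on the 2 groups alone, and 993 to 3708, 1462 to 3433 and 204 to 1309 with a library left out. For tiamulin against lefamulin alone they were also 1073 with DESeq2, 1271 with no filter, 263 with the block and 443 and 444 with limma. DEGs, 219, 259 and 33 over all genes, numbered 53, 59 and 10 with limma and a pseudocount of 1 FPKM, 105, 153 and 21 with 0.1 FPKM, 131 and 164 under each drug with at least 10 counts per library, and, between the drugs, 70 with no filter, 53 with GC and length offsets, 18 with the block or on the 2 groups alone and 14 without lefamulin library 3. Depth limits Fos most, and 3 libraries a group limit the smaller changes.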
